A study of Mus musculus with 10 samples.

Results

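C/EBPβ sites kept without GR were the 6340 C/EBPβ peaks of 3T3-L1 cells 6 h after induction of differentiation that shared at least 1 bp with a C/EBPβ peak of undifferentiated cells (0 h) and no bp with a peak of the glucocorticoid receptor (GR) at 6 h. They were chosen by these measured overlaps of the 3 peak lists. They made up 30.6% (29.9 to 31.2%) of the 20746 C/EBPβ peaks at 6 h, and 85.7% (84.9 to 86.5%) of the 7396 peaks listed at both times. 3T3-L1 is a mouse fibroblast line of clonal origin that turns into fat cells in culture. Cross-linked nuclear lysates of this line, taken at 4 times (0, 6, 24 and 240 h), were used for ChIP-seq, in which DNA bound by a factor or carrying a mark is precipitated and sequenced, with induction by a standard protocol whose agents the labels do not name, and every factor and time is 1 library with no control genotype. C/EBPβ was profiled at 6 h and 0 h, GR at 6 h with 2 antibodies named on its label, and acetylation of histone H3 lysine 9 (H3K9ac) at 0, 24 and 240 h. The H3K9ac lists are limited to regions away from transcription start sites whose enrichment, in the authors' call, differed between that time and another. The 0 h list has 4429 regions, the 24 h list 1629 and the 240 h list 7845. The lists carry no read totals. Library depth is therefore unknown, and absence from a list does not show absence of binding.

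C/EBPβ is a basic leucine zipper factor that binds DNA as a dimer. It acts early in adipocyte differentiation, upstream of the fat cell regulators C/EBPα and PPARγ, and is also present in preadipocytes. GR is a nuclear receptor that enters the nucleus once it has bound a glucocorticoid, a kind of hormone often used to induce fat cell differentiation. H3K9ac is a mark of active promoters and enhancers.

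The other C/EBPβ peaks at 6 h serve as comparison: 1056 kept sites with GR, 11700 new sites without GR (absent from the 0 h list) and 1650 new sites with GR. Over the whole 6 h list, 35.7% of peaks overlapped a 0 h peak and 13.0% overlapped a GR peak. The rule chose the sites by these overlaps, so presence at 0 h and absence of GR are not findings about them. The ranges in parentheses after a share or a difference of shares are 95% intervals (Wilson and Newcombe) of counting error. They say nothing of the spread between cultures, for which no replicate exists, so no p-value is given.

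The borders of the rule were thin in places. The kept sites nearest to GR lay 8, 14 and 15 bp from a GR peak, and 25 kept sites without GR lay under 100 bp from one. Just outside the rule, the kept sites with the shortest GR overlap shared 1, 5 and 7 bp with it, and 12 shared under 100 bp. The shortest overlaps of kept sites without GR with a 0 h peak were 5, 6 and 8 bp, with 7 of the sites under 50 bp. Of the new sites without GR, 85 lay under 100 bp from a 0 h peak, the nearest 12, 12 and 13 bp away. For most kept sites without GR neither border was close. Their median gap to GR was 109 kb, and their centre lay a median of 31 bp (quartiles 14 and 62 bp) from the centre of the 0 h peak they met, with 67.1% under 50 bp.

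Peak height, the authors' whole-number read signal with a lowest listed value of 12, was about the same at both times. The kept sites without GR had a median height of 22 at 6 h (quartiles 16 and 31, highest 86), against 20 for their highest 0 h counterpart (quartiles 15 and 31, highest 134). The height at 6 h was above that at 0 h in 3185 sites (50.2%), equal in 324 (5.11%) and below it in 2831 (44.7%). The median ratio of the heights was 1.03 (quartiles 0.750 and 1.43). In 595 sites the height at 6 h was at least 2 times that at 0 h, and in 549 it was at most 0.5 times.

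Kept sites with GR differed in that measure. Their median height was 42 at 6 h against 24 at 0 h, with a median ratio of 1.54, and 77.6% of them were higher at 6 h, against 50.2% of the kept sites without GR. Ratios of at least 2 were found in 9.38% of the kept sites without GR and in 32.3% of those with GR. These heights come from the libraries that defined the classes and were not normalised between libraries, so they are given as a description. Fold enrichment, a ratio given by the authors without a description of its background, gave median ratios of 0.989 without GR and 1.28 with GR.

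**Figure D1:**
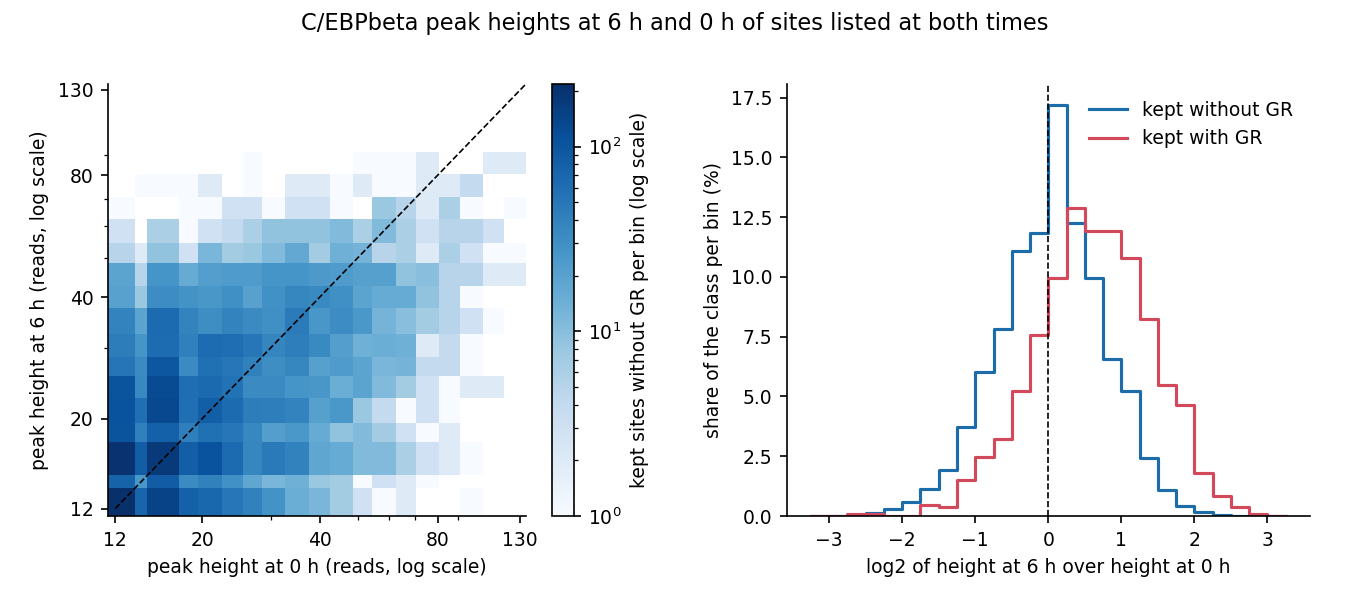
Left, peak height at 6 h against height of the highest overlapping 0 h peak for the 6340 kept sites without GR, in reads on log axes, with the number of sites per bin in colour and equality as the dashed line. Right, share of each class per bin of the log2 height ratio, with a ratio of 1 counted just above 0; the kept sites without GR centre on a ratio of 1.03 and the 1056 kept sites with GR on 1.54.

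The kept sites without GR had 6 h heights from the lowest listed value of 12 up to 86. They formed 47.3% of the strongest of 4 equal height classes of the 6 h list (heights 26 to 112) and 17.2% of the weakest (12 to 14). Read from the 0 h list, 75.3% of the strongest class (27 to 134) met one of them, 18.0% met a kept site with GR and 7.10% were absent at 6 h. In the weakest 0 h class these shares were 45.2%, 5.76% and 49.1%. The rule needs a listed peak at both times, and the weakest classes stand nearest to the lowest listed height. These shares therefore depend on the list cut-off and are a description. Sites at the lowest listed height of 12 made up 5.96% of the kept sites without GR at 6 h and 7.89% at 0 h, and 61 sites had it at both times.

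The 2 highest sites had a height of 86 at 6 h. The first was chr6:4538046-4538308 (mm8 throughout), where the 0 h height was 59 and GR was 7.79 kb away. The second, chr17:44172995-44173299, reached 134 at 0 h, lay inside an H3K9ac 0 h region and was 233 kb from GR. The next lay at chr15:73444859-73445186 (85 at 6 h, 54 at 0 h), chr3:142557643-142558125 (84 at 6 h, 80 at 0 h) and chr19:44074910-44075422 (83 at 6 h, 115 at 0 h). Of these 5 sites, 3 were thus higher at 6 h and 2 were higher at 0 h.

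The ratio was largest at chr2:59877565-59877988, where the height was 63 at 6 h against 12 at 0 h. The sites chr15:102060824-102061362 (72 at 6 h, 14 at 0 h) and chr6:112990541-112991101 (58 at 6 h, 12 at 0 h) came next. At the other end stood chr11:96638801-96639072, with 12 at 6 h against 101 at 0 h. It was followed by chr2:91856369-91856874 (16 at 6 h, 102 at 0 h) and chr2:102788197-102788510 (12 at 6 h, 63 at 0 h). The last shares its wide 0 h peak with another kept site whose height at 6 h was 50, so its ratio sets a side peak against the 0 h height. In all, 103 kept sites without GR had another 6 h peak on their 0 h peak. A higher one lay there in 54 cases, of which 18 had a ratio of at most 0.5. A site kept by the rule could thus be among the highest peaks at one time and at the lowest listed heights at the other.

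H3K9ac, which the rule did not use, set the kept sites without GR apart from new sites. An H3K9ac 0 h region lay within 1 kb of 535 of them (8.44%, 7.78 to 9.15%), against 512 of the 11700 new sites without GR (4.38%, 4.02 to 4.76%) and 5.68% of all C/EBPβ 6 h peaks. The difference from new sites without GR was 4.06 percentage points (3.30 to 4.86). Near the 24 h regions the order turned. These lay near 99 of the kept sites without GR (1.56%, 1.28 to 1.90%), against 278 of the new sites without GR (2.38%, 2.12 to 2.67%) and 3.11% of all peaks, a difference of -0.815 points (-1.22 to -0.389). With regions of the lowest FDR alone this was -0.205 points (-0.411 to 0.0230). Near the 240 h regions lay 375 of the kept sites without GR (5.91%, 5.36 to 6.52%), 524 of the new sites without GR (4.48%, 4.12 to 4.87%) and 4.98% of all peaks, a difference of 1.44 points (0.758 to 2.14), which was 0.716 points (-0.277 to 1.76) among the stronger peaks of each factor list.

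Kept sites with and without GR were not told apart near the 0 h and 240 h regions. The difference, without GR minus with GR, was 0.863 points (-1.01 to 2.47) at 0 h and 0.233 points (-1.43 to 1.62) at 240 h. At 24 h it was -6.30 points (-8.10 to -4.79), with 1.56% of the kept sites without GR and 7.86% of those with GR near a region. With the window widened to 50 kb, the kept sites without GR were less often near 0 h regions than those with GR, by -3.21 points (-6.38 to -0.121).

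By direct overlap with a region the shares of the kept sites without GR were 6.81, 1.14 and 4.95% at 0, 24 and 240 h, against 4.49, 2.29 and 4.03% of all C/EBPβ 6 h peaks. Of the kept sites without GR, 532 lay near a 0 h region alone, 97 near a 24 h region alone and 374 near a 240 h region alone. A further 2 lay near regions of 0 and 24 h, 1 near regions of 0 and 240 h, and 5334 near none. Over all C/EBPβ 6 h peaks, 11 of the 2846 near any region were near regions of more than 1 list.

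**Figure D2:**
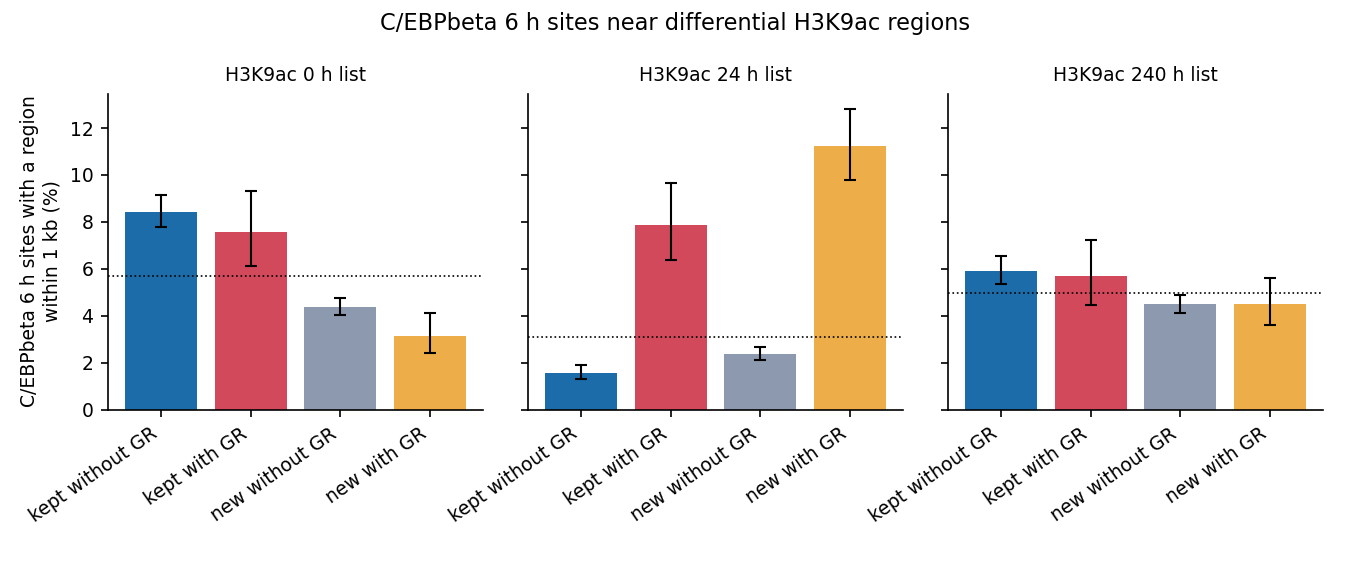
Share of C/EBPβ 6 h sites with an H3K9ac region of the 0, 24 or 240 h list within 1 kb, in percent, for the 4 classes of sites; bars are shares, error bars 95% Wilson intervals of counting error, and the dotted line is the share of all 20746 peaks (5.68, 3.11 and 4.98%). Kept sites without GR have 8.44, 1.56 and 5.91%.

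Kept sites were higher than new ones, with a median height of 22 against 15 without GR, so the comparison was repeated within the height classes of the 6 h list. The excess near 0 h regions was present in each class. From the weakest to the strongest class the difference was 2.80 (1.15 to 4.76), 4.62 (2.94 to 6.50), 4.19 (2.71 to 5.75) and 4.53 points (2.94 to 6.02). The deficit near 24 h regions was also present in each class, with -1.29 (-1.89 to -0.415), -0.999 (-1.62 to -0.200), -0.969 (-1.85 to -0.0360) and -2.11 points (-3.44 to -0.965). In the strongest class, 1.96% of the kept sites without GR and 4.07% of the new sites without GR lay near a 24 h region. The 24 h call was lost in 5 alternative settings in the third class, that of autosomes alone included, and in 3 in the second. With regions of the lowest FDR alone it was lost in the weaker 3 classes, and within 10 kb in the second and the strongest, where the value was -0.817 points (-2.64 to 0.866). Near 240 h regions the difference was 1.96 and 1.67 points in the weaker classes, while the intervals of the other two included 0, at -0.655 (-1.94 to 0.692) and 1.46 points (-0.208 to 3.01).

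**Figure D3:**
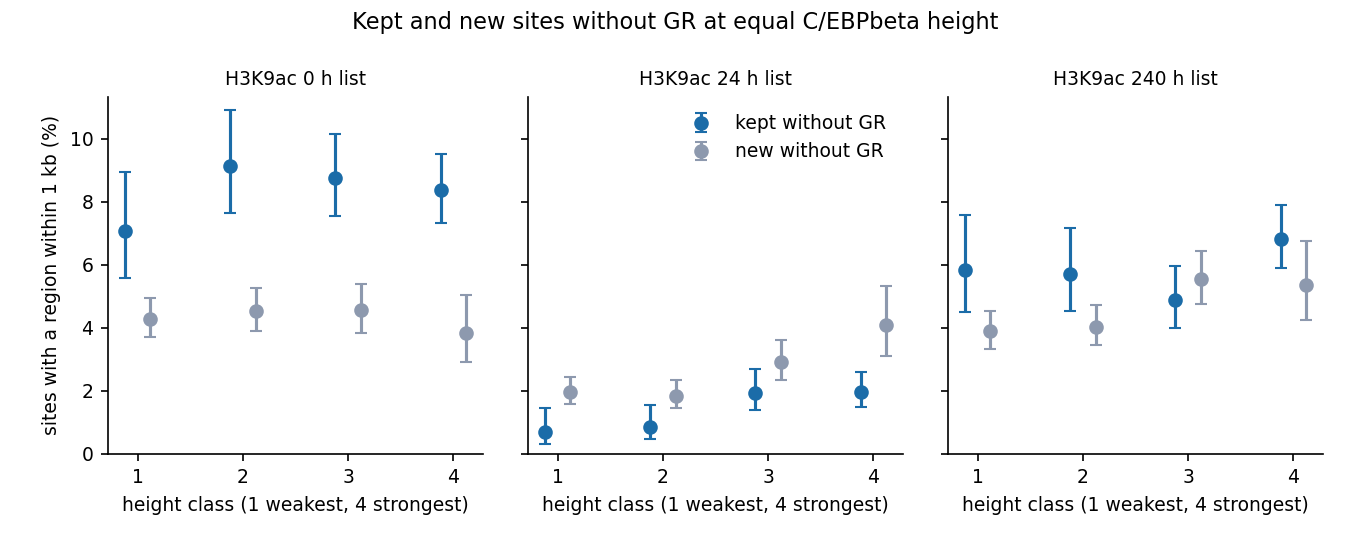
Share of kept and new C/EBPβ sites without GR with an H3K9ac region within 1 kb, in percent, by height class of the 6 h list; points are shares and bars 95% Wilson intervals of counting error. Kept sites lie above new sites in all 4 classes for the 0 h list and below them in all 4 for the 24 h list.

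C/EBPβ peaks of undifferentiated cells that were not listed at 6 h also lay near 0 h regions more often than new sites without GR did, by 2.45 points (1.51 to 3.48). The kept sites without GR met 6325 peaks of the 0 h list, of which 8.38% (7.72 to 9.09%) lay near a 0 h region, against 6.83% (5.97 to 7.79%) of the 2974 peaks absent at 6 h and 7.79% of all 0 h peaks. The difference was 1.55 points (0.387 to 2.66), and in each of the 4 height classes of the 0 h list its interval included 0. Near 24 h regions the shares were 1.52% against 0.336% (1.80% of all 0 h peaks), a difference of 1.18 points (0.789 to 1.55). This difference held an interval above 0 in the weaker 3 height classes, and in the strongest it was 0.975 points (-1.10 to 1.52). From the weakest to the strongest class, only 4, 5, 1 and 0 of the peaks absent at 6 h lay near a 24 h region. Near 240 h regions the shares were 5.88% and 5.72% (5.83% of all 0 h peaks), which differed by 0.165 points (-0.885 to 1.15).

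Among the kept sites without GR, those whose height was larger at 6 h lay more often near 24 h regions. The sites were put into 3 equal classes by the ratio of heights. The class with the largest ratios (median 1.65, with median heights of 29 at 6 h and 16 at 0 h) had 58 of 2114 sites near a 24 h region (2.74%, 2.13 to 3.53%). The middle class had 25 of 2113 (1.18%), and the class with the smallest ratios (median 0.636, with median heights of 18 at 6 h and 31 at 0 h) had 16 of 2113 (0.757%, 0.467 to 1.23%). The largest exceeded the smallest class by 1.99 points (1.21 to 2.83). Near 0 h and 240 h regions the same difference was -1.09 (-2.75 to 0.566) and 0.0443 points (-1.44 to 1.53).

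Distance to GR and height moved with this ratio. The median gap to GR was 93.1 kb in the class with the largest ratios and 126 kb in that with the smallest. The difference near 24 h regions was 2.85 points (1.45 to 4.30) among sites within 100 kb of GR and 0.9297 points (0.182 to 1.84) among sites farther away. Within the strongest height class, sites in the upper part of the ratio had 2.94% and those in the lower part 0.979% near 24 h regions, a difference of 1.96 points (0.873 to 3.14). In the other 3 height classes it lay between 0 and 0.997 points, with intervals that included 0.

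Proximity to 24 h regions fell off with distance from GR even though none of these sites overlapped a GR peak. It was 6.98% (9 of 129 sites, 3.71 to 12.7%) under 1 kb from GR, 4.34% (27 of 622, 3.00 to 6.24%) at 1 to 10 kb, 1.96% (45 of 2295, 1.47 to 2.61%) at 10 to 100 kb and 0.546% (18 of 3294, 0.346 to 0.862%) at 100 kb or more. Sites at 1 to 10 kb exceeded those at 100 kb or more by 3.79 points (2.42 to 5.71), and by 0.813 points (0.253 to 1.94) with the 24 h regions of the lowest FDR alone. Near 0 h regions the shares were 10.9, 8.52, 8.63 and 8.20% in the same order, and the same contrast was 0.324 points (-1.86 to 2.94). With the H3K9ac gap widened to 10 kb it was 5.81 points (2.55 to 9.38). Near 240 h regions the shares were 2.33 (3 of 129 sites, 0.794 to 6.61%), 5.14, 5.80 and 6.28%. There the contrast of 1 to 10 kb with 100 kb or more was -1.14 points (-2.86 to 1.03). In each height class, sites under 10 kb from GR were more often near a 24 h region than those at 100 kb or more. The difference was 2.74 (0.592 to 8.09), 2.07 (0.438 to 6.18), 6.31 (3.39 to 10.99) and 4.37 points (2.30 to 7.35) from the weakest to the strongest class, although the weaker 2 classes held only 3 near sites each within 10 kb.

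In new sites without GR the share was also lower at larger distance, with 8.13% under 1 kb and 1.02% at 100 kb or more, and the slopes of both classes were not compared by a test. Kept minus new sites without GR differed by -1.16 (-5.90 to 5.11), -0.715 (-2.55 to 1.44), -0.786 (-1.50 to 0.00161) and -0.475 points (-0.838 to -0.0819) in order of distance. At 100 kb or more alone did the interval leave out 0. Of the 99 sites near a 24 h region, 13 (13.1%, 7.84 to 21.2%) were near one with a GR peak within 1 kb, against 45 of 278 new sites without GR (16.2%, 12.3 to 20.97%). Of all 1629 24 h regions, 346 (21.2%) had GR within 1 kb. That is a share of regions, not of sites, and both classes of sites leave out overlap with GR. It is therefore no baseline for the shares of sites. Against the 1283 24 h regions without GR within 1 kb, kept and new sites without GR had 1.39% and 2.02%, a difference of -0.629 points (-1.005 to -0.230).

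**Figure D4:**
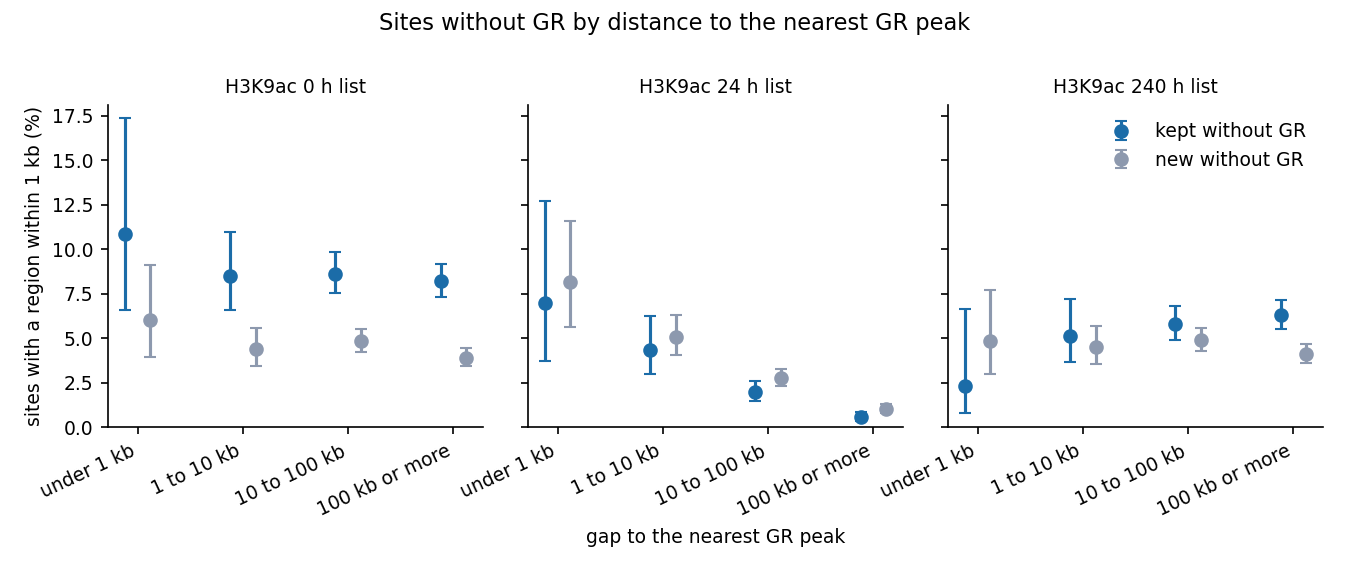
Share of kept and new C/EBPβ sites without GR with an H3K9ac region within 1 kb, in percent, by the gap to the nearest GR peak; points are shares and bars 95% Wilson intervals of counting error. For the 24 h list the kept sites go down with distance, with 6.98, 4.34, 1.96 and 0.546%, while for the 0 h list they stay between 8.20 and 10.9%.

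The highest kept sites near acetylated regions were as follows. Near 0 h regions these were the chromosome 17 site named above, in a region from 44170700 to 44174700, and sites at chr9:60542330-60542788 (79 at 6 h, 69 at 0 h) and chr6:31416800-31417222 (74 at 6 h, 85 at 0 h). Near 24 h regions they lay at chr8:80659047-80659420 (64 at 6 h, 56 at 0 h), chr6:34728116-34728378 (60 at 6 h, 35 at 0 h) and chr2:137546046-137546398 (55 at 6 h, 27 at 0 h). All 3 were higher at 6 h. GR lay 7.52 kb from the first, 0.675 kb from the second, with a GR height of 30, and 21.4 kb from the third. Near 240 h regions they lay at chr2:72167323-72168030 (81 at 6 h, 27 at 0 h), chr15:61138647-61138973 (80 at 6 h, 59 at 0 h) and chr13:48205844-48206226 (77 at 6 h, 27 at 0 h). These 3 were also higher at 6 h, and the nearest GR peak to any of them was 46.1 kb away.

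Seen from the acetylated regions, a kept site without GR lay within 1 kb of 538 of the 4429 regions at 0 h (12.1%, 11.2 to 13.1%), 101 of the 1629 at 24 h (6.20%, 5.13 to 7.48%) and 391 of the 7845 at 240 h (4.98%, 4.52 to 5.49%). Most held 1 such site, and 30, 3 and 7 regions held more, with 3 at most. At 0 h, 452 of the 538 regions had neither a new site without GR nor a GR peak within 1 kb. Regions with a kept site were wider, with medians of 1750 bp against 1450 bp at 0 h, 1650 against 1300 bp at 24 h and 1850 against 1600 bp at 240 h. The part of region length in these shares was not tested.

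Regions with a higher average read count, the authors' whole-number signal over a region, held kept sites more often at 0 and 240 h. At 0 h, 9.68% (8.50 to 11.02%) of regions with a count of 10 or less had one, 13.5% (11.9 to 15.2%) of those with 11 to 12 and 16.4% (13.9 to 19.3%) of those with 13 or more. At 240 h the shares were 3.18, 5.47 and 7.64%. At 24 h they were 5.82, 7.63 and 8.62%, with intervals that overlapped. Width moved with the read count, so regions of at least 1200 and under 2000 bp were also taken alone. In order of the read count they had 10.1 (8.20 to 12.4), 13.8 (11.1 to 17.1) and 15.6% (11.5 to 20.8%) at 0 h, with intervals that overlapped. At 240 h they had 3.80 (2.89 to 4.99), 6.01 (4.60 to 7.82) and 7.14% (5.29 to 9.58%). There the intervals of the lowest and the highest count did not overlap. At 24 h they had 6.596, 7.29 and 6.67%. Regions under 1200 bp had 7.83, 9.58 and 9.20% at 0 h, with intervals that overlapped. Those of 2000 bp or more had 12.4, 16.6 and 18.4% at 0 h, also with intervals that overlapped. An FDR listed as 0 was found in 60.2% of the 0 h regions with a kept site and 49.1% of those without. This comparison was not split by width.

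Within 10 kb, kept sites without GR had another C/EBPβ 6 h peak of any class less often than the other classes did. Such a peak was found for 43.4% of them and for 47.7% of all 6 h peaks. The shares were 46.8% for new sites without GR, 64.2% for kept sites with GR and 60% for new sites with GR. The difference from new sites without GR was -3.40 points (-4.92 to -1.88) and lay between -7.82 and -3.80 in the height classes, each with an interval below 0. The difference from kept sites with GR was -20.8 points (-23.9 to -17.7). Kept and new sites without GR had close shares at other distances, with 12.1 and 12.9% within 1 kb and 91.6 and 92.1% within 100 kb. The neighbours come from the lists that defined the classes, so all these values are a description. The median gap was 48.8 kb to the next kept site without GR and 24.3 kb to the nearest new peak, of which there were more. GR lay within 10 kb of 11.8% of kept and 15.2% of new sites without GR.

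Their share of the C/EBPβ 6 h peaks of a chromosome was highest on chromosome 5 (35.9%, 33.2 to 38.6%) and chromosome 11 (34.6%, 31.6 to 37.6%). It was lowest on chromosome 19 (28.1%, 25.3 to 31.1%), and 30.6% (29.9 to 31.2%) in the whole list. These shares follow from the overlaps that chose the sites, and the chromosomes named are the extremes of all, so they are a description. Windows of 100 kb held 8 of them at most, on chromosome 5 from 91900000 and on chromosome 8 from 13600000. The first also held 6 new C/EBPβ peaks, 1 GR peak and 2 H3K9ac regions each of 0 and 24 h, and the second held 2 new peaks, 1 GR peak, 1 H3K9ac region of 24 h and 3 of 240 h. Windows on chromosome 6 from 92400000 and chromosome 18 from 33400000 held 7 each. They held 5 and 2 H3K9ac 0 h regions and no region of 24 or 240 h. Of the 4486 windows with such a site, 394 held 3 or more, with 1346 of the 6340 sites. The same count is not given for the other classes, so it does not show a grouping particular to these sites.

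**Figure D5:**
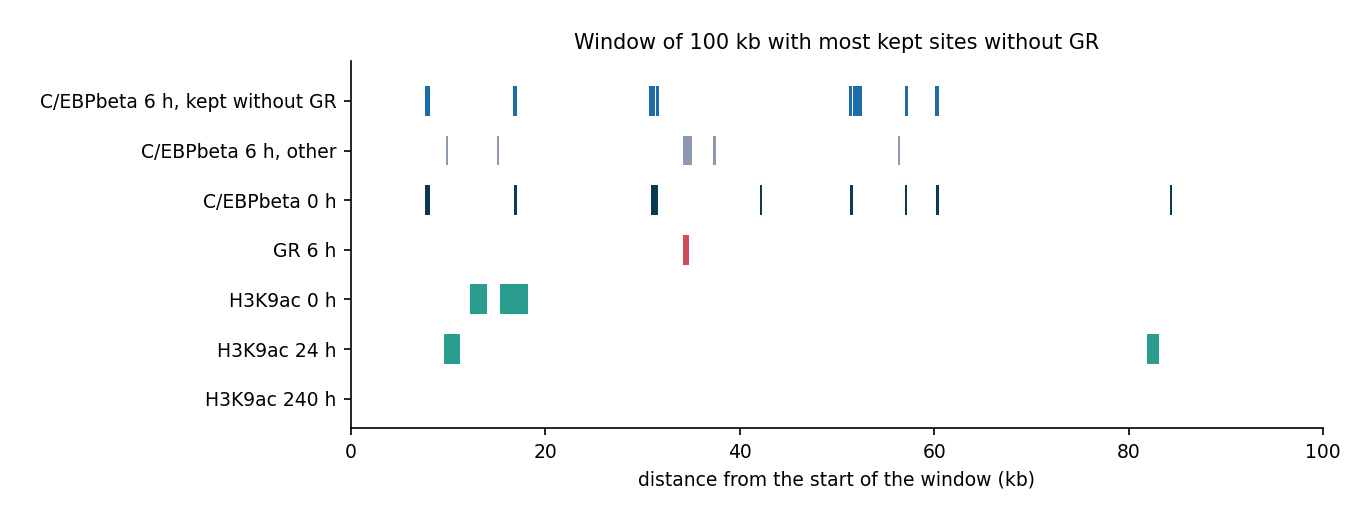
Map of a 100 kb window on chromosome 5 with 8 kept sites without GR, as distance in kb from the start of the window; blocks are the listed peaks and regions, drawn to scale. The kept sites meet 0 h peaks in the first part of the window, and 1 of them lies inside an H3K9ac 0 h region. The site that starts at 51.613 kb shares only 8 bp with a 0 h peak that another kept site also meets. None of the kept sites lies within 1 kb of either H3K9ac 24 h region.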

How the data were processed

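Per the labels' protocols, 36 bp reads were aligned to mm8 with ELAND (2 mismatches allowed). Reads with a unique position were retained, and duplicates at a start were reduced to 1. Repeats are therefore not covered, and high peaks are limited in height. Peak caller, threshold and use of input: not given in the sources used here. The deposited factor lists give a fold enrichment (a ratio) and a peak height (a read signal) per peak. The deposited H3K9ac lists give an FDR (a false discovery rate, as named by the authors) and an average read count (a signal) per region. All these are the authors' values and describe or rank items within a list. The authors' file of 6 input bias regions gives coordinates with no score. No listed peak or region overlapped them.

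Overlaps and intervals were computed in Python (3.11.15) using pandas (2.3.3) and numpy (2.4.6), and figures with matplotlib (3.10.9). Intervals were read as half-open. Sites shared when they overlapped by 1 bp or more, and an H3K9ac region was near when the gap was under 1 kb. Ties in height were ordered by fold enrichment. The overlap code was tested on simulated data. The members and lists were chosen with earlier results of these data known. Named regions are the 5 highest kept sites without GR, the 3 with the largest and the 3 with the smallest height ratio, the 3 highest near each H3K9ac list, the 3 nearest each border of the rule, and the 3 densest windows with 1 tie. Alternatives covered the overlap, the distances, the stronger peaks, autosomes alone, the H3K9ac FDR and weighting by height. The GR distance contrast, its height classes, the 0 h view and the splits of regions were added later. Gene names and DNA sequence were not used here, since the coordinates are on mm8.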

Additional observations from a re-analysis of the deposited data

Results flagged for a closer look

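Kept minus new sites without GR had opposite signs near the 0 h and 24 h H3K9ac regions, with 4.06 points at 0 h and -0.815 points at 24 h. The lists hold regions that differed between times, and 11 of the 2846 C/EBPβ 6 h peaks near any region were near more than 1 list. The 2 values are thus not independent. Each is a difference of shares from single libraries with an interval that leaves out 0, although at 24 h the value was -0.205 points (-0.411 to 0.0230) with regions of the lowest FDR alone, and the contrast between the 2 values was not tested.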

How the results depend on the processing

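No paired analysis was possible because each group is 1 library. Unknown depth limits every statement on peaks missing from a list. Among the differences of shares over all heights, 85 values under alternatives kept direction and call. Of the others, 7 reversed in sign, 2 lost their call and 2 gained one. Kept sites without GR made up 32.8% of the 6 h list with centres within 1 kb as the criterion. The share of these sites near H3K9ac regions at 0, 24 and 240 h was 17.0, 5.69 and 15.0% for a gap under 10 kb. Overlap itself gave 6.81, 1.14 and 4.95%. Regions of the lowest FDR, which are fewer, gave 5.39, 0.410 and 3.80%. Within 10 kb, 27.9, 23.6 and 16.8% of the regions had such a site.

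Kept minus new sites without GR lost its call at 240 h with the stronger peaks (0.716 points, -0.277 to 1.76) and at 24 h with the lowest FDR alone (-0.205, -0.411 to 0.0230). In the third height class, its uncalled value at 240 h reversed to 0.170 with the stronger peaks and 0.0117 by direct overlap, both uncalled, and to 2.38 (0.368 to 4.45) within 10 kb, a call. The 24 h values within height classes lost their call in 10 cases without changing sign. Kept sites without minus with GR, uncalled, reversed at 0 h to -0.421 within 10 kb and to -0.927 when weighted by height, and at 240 h to -0.176 with the lowest FDR. The difference by height ratio at 240 h reversed to -2.52 (-4.71 to -0.319) within 10 kb. The contrast of sites 1 to 10 kb from GR with those at 100 kb or more reversed at 0 h to -0.00650 with the stronger peaks and -0.178 by direct overlap, gained a call at 0 h within 10 kb (5.81), reversed at 240 h within 10 kb (1.69) and gained a call at 240 h with the lowest FDR (-1.71). The cause was not tested in any of these. At 24 h this contrast kept its direction and call in every alternative run. So did the difference by height ratio, which was run only with the gap under 10 kb, with fold enrichment and with 2 classes. Closed intervals, chosen after the data had been examined, changed no call.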

Other observations

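Within the strongest height class of the 6 h list, kept sites without GR in the lower part of the height ratio, whose median height was 41 at 0 h, lay near H3K9ac 0 h regions in 10.4% of cases. Those in the upper part, with a median of 18 at 0 h, had 6.36%. The difference, upper minus lower, was -3.997 points (-6.21 to -1.81), and in the other height classes its interval included 0. Of the strongest class of the 0 h list, 6.93% of the peaks that met a kept site without GR lay near a 240 h region, against 23 of 184 peaks (12.5%) that were absent at 6 h, a difference of -5.57 points (-11.2 to -1.37). Both contrasts were found by looking through many classes. Where kept sites without GR overlapped an H3K9ac 0 h region, their centre lay at a median of 0.446 of the way from the middle of the region to its edge, against 0.493 for new sites without GR. The order was the other way at 24 h, with 0.510 against 0.490, and at 240 h, with 0.472 against 0.442, and no interval was computed.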
